A study of Mus musculus with 8 samples.

Results

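The genes described here encode 9 proteins of the DNA damage signalling cascade that starts from phosphorylated histone H2AX: *Mdc1*, *H2ax*, *Rnf8*, *Rnf168*, *Brca1*, *Bard1*, *Trp53bp1*, *Uimc1* and *Atm*. They were taken by name, as genes of the cascade, and matched by Entrez identifier to 9 of the 21058 genes listed in the deposited tables. All 9 passed the minimum of 10 counts and were among the 17643 genes tested. RNA was sequenced from pachytene spermatocytes of *Arid1a* WT and *Arid1a* cKO mice, with 4 libraries per genotype. ARID1A is a putative DNA-binding subunit of the BAF chromatin remodeling complex.

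Males of the *Arid1a* cKO group had the genotype Arid1a fl/fl; Stra8-Cre Tg/0. Their Cre transgene is driven by the *Stra8* promoter, which starts to excise floxed exons in spermatogonia, before meiosis. The *Arid1a* WT males were Arid1a fl/fl or Arid1a fl/+ without Cre, so floxed alleles are found in both groups. All were adults, and each purification pooled the testes of several males. The floxed *Arid1a* mice were on a CD1 background, and the background of the *Stra8-Cre* mice crossed with them is not given in the sources used here. Cells were separated by Sta-Put sedimentation at unit gravity, and fractions rich in pachytene spermatocytes were chosen by light microscopy, so both groups hold some other testis cells. Excision by Stra8-Cre was incomplete according to the study, and *Arid1a* cKO fractions include spermatocytes that kept ARID1A.

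In somatic cells, the kinase ATM phosphorylates H2AX at a DNA break, MDC1 binds the phosphorylated histone (γH2AX) and spreads the mark, and the ubiquitin ligases RNF8 and RNF168 then modify the surrounding chromatin. The ubiquitin marks are read by 53BP1 (encoded by *Trp53bp1*), by RAP80 (encoded by *Uimc1*) with the BRCA1-A complex, and by the BRCA1-BARD1 ligase. In male meiosis the unsynapsed X and Y axes recruit BRCA1 and the kinase ATR, and MDC1 carries γH2AX from the axes into the chromatin loops, where the sex body forms. The comparison addresses whether the transcripts of this cascade differ between *Arid1a* WT and *Arid1a* cKO pachytene spermatocytes.

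Libraries held 15850961 to 22044507 estimated counts, and the members had 153 to 14121 counts per library. *Arid1a* itself was at 113 ± 13.8 CPM in *Arid1a* WT and 79.7 ± 2.89 CPM in *Arid1a* cKO (SD, n = 4 each), and every *Arid1a* cKO library was below every *Arid1a* WT library (log2 fold change -0.51, SE 0.07, edgeR adjusted p = 2.31e-05). The gene count does not separate floxed from excised transcripts, so it does not measure how much intact *Arid1a* RNA was left. By RT-PCR, the study found both forms in *Arid1a* cKO pachytene spermatocytes, with more of the excised form. CPM are counts scaled to a common library total after TMM normalization, and log2 fold changes are *Arid1a* cKO minus *Arid1a* WT. The markers that define pachytene spermatocytes were present in every library, with a summed level of 7423 to 8703 CPM in *Arid1a* WT and 5635 to 6035 CPM in *Arid1a* cKO. Of these 7 markers, 5 were lower and 2 higher in *Arid1a* cKO, with *Piwil1* alone at a mean of 1600 against 109 CPM. Markers of other cells moved too. All 8 spermatid markers were higher in *Arid1a* cKO (summed level 1737 to 1923 CPM against 8176 to 8436 CPM), all 6 spermatogonial markers were higher (89.68 to 91.72 CPM against 136.4 to 146.6 CPM), and 5 of 6 macrophage and blood markers were higher (4.436 to 5.232 CPM against 11.13 to 13.73 CPM). All 6 Sertoli cell markers were lower (422 to 481.6 CPM against 120.9 to 126.1 CPM), as were 5 of 6 Leydig cell markers (56.57 to 60.25 CPM against 8.107 to 8.611 CPM). Of 5 leptotene and zygotene markers, 3 were higher and 2 lower, with a summed level of 159.4 to 193.7 CPM against 89.47 to 97.9 CPM. *Spo11* alone went from a mean of 134 to 21.0 CPM in that sum, and each of the 3 markers that rose was at 12.9 CPM or less in *Arid1a* WT (*Stra8*, 12.9 to 21.7 CPM). No marker in the table was at 0 in all libraries. The part of these cells in the values below was not tested, and in bulk RNA fewer cells of a type and less RNA per cell cannot be told apart.

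Promoter sequence is shown for the 4 members whose transcripts moved most or moved upward, since *Bard1* and *Brca1* encode the subunits of 1 ligase yet moved apart. Each run is 300 bases of the RefSeq GRCm38.p6 assembly, from 250 bases before the start site to 50 bases into the first exon, written 5′ to 3′ on the gene's own strand. The start site is that of the matched promoter. For *Mdc1* (35841498), *Bard1* (71102972) and *Atm* (53536671) it lies inside the gene coordinates printed below, and for *Brca1* it is the end of them. Capitals mark a CCAAT box on either strand (CCAAT, or ATTGG where it lies on the other strand). The windows are chr17:35841248-35841547 (plus strand) for *Mdc1*, chr1:71102923-71103222 (minus strand) for *Bard1*, chr11:101551906-101552205 (minus strand) for *Brca1* and chr9:53536622-53536921 (minus strand) for *Atm*.
Mdc1: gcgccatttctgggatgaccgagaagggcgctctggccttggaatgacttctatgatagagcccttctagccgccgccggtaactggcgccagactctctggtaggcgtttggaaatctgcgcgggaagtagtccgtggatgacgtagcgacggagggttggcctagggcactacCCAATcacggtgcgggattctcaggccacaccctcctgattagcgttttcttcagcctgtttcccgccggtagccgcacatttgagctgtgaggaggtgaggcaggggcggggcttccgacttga
Bard1: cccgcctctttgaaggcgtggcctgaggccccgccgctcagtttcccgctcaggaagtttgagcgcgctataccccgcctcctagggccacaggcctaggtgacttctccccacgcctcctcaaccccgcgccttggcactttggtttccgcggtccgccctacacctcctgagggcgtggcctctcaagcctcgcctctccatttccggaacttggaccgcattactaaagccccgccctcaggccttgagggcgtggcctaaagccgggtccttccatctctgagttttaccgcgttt
Brca1: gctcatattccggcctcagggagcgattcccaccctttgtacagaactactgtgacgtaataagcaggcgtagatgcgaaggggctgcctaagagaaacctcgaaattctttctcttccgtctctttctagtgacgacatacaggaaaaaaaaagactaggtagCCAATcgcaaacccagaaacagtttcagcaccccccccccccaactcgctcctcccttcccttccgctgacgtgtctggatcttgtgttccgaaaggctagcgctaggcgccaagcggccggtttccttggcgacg
Atm: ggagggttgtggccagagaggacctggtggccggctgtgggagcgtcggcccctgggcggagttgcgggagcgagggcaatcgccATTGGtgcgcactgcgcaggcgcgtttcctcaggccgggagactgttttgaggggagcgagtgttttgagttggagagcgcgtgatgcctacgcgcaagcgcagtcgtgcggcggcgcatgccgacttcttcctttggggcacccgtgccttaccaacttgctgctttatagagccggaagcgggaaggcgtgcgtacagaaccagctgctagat

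A RefSeq promoter was matched for 8 of the 9 members, with *H2ax* unmatched. The CCAAT box, a short element bound by NF-Y, was found in 5 of the 8: *Mdc1* at position -75 from the start site, *Brca1* at -86, *Uimc1* at -132, *Atm* at -165 and *Rnf8* at -209. Positions are counted from the start site of the matched promoter. Like that of *Atm*, the sites of *Uimc1* (55100300) and *Trp53bp1* (121271407) lie inside the gene coordinates printed below. Of all 32851 promoter windows of this length, 37.4% hold it. The 5 genes with the letters include *Mdc1*, *Rnf8* and *Uimc1*, which were lower in *Arid1a* cKO, and *Brca1* and *Atm*, which were higher. An ETS element (ACTTCCGG, in 3.89% of windows) was found in *Rnf168* at position -15, on the other strand. The letters of 3 further elements, searched on both strands, were in none of the 8 windows: CRE (TGACGTCA, 1.79% of windows), E2F (TTTGGCGC, 0.514%) and the MYB element (CAGTTG, 13.7%). A match is a string of letters in the window and not a measured binding site.

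Of the 9 members, 7 were lower and 2 higher in *Arid1a* cKO at an edgeR adjusted p of 0.05 or less. The call of *Trp53bp1* was lost in 12 of 17 alternatives, which leaves 6 lower, and an adjusted p of 0.01 leaves 5. *Mdc1*, *H2ax*, *Rnf8*, *Rnf168*, *Bard1*, *Trp53bp1* and *Uimc1* were lower, and *Brca1* and *Atm* were higher. Over all genes tested, 37.5% were called lower, 36.5% higher and 74.0% in either direction, so a call by itself is common in these data. The median log2 fold change was -0.29 over the 9 members and -0.02 over all genes. Every *Arid1a* cKO library was below every *Arid1a* WT library for 5 members and above for 2, where 34.9% of all genes were below and 34.0% above. The groups overlapped for *Trp53bp1* and *Uimc1*. At a change of at least 1 log2 unit, 1 member (*Bard1*) was lower and 1 (*Brca1*) was higher, against 16.0% and 20.6% of all genes in edgeR. *Mdc1* and *Rnf8* were also lower by more than 1 log2 unit in DESeq2 with length offsets (-1.04 and -1.13) and in limma on log2(TPM + 1) (-1.15 and -1.14) and log2(TPM + 0.1) (-1.16 and -1.24), so this count depends on the setting.

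**Figure D1:**
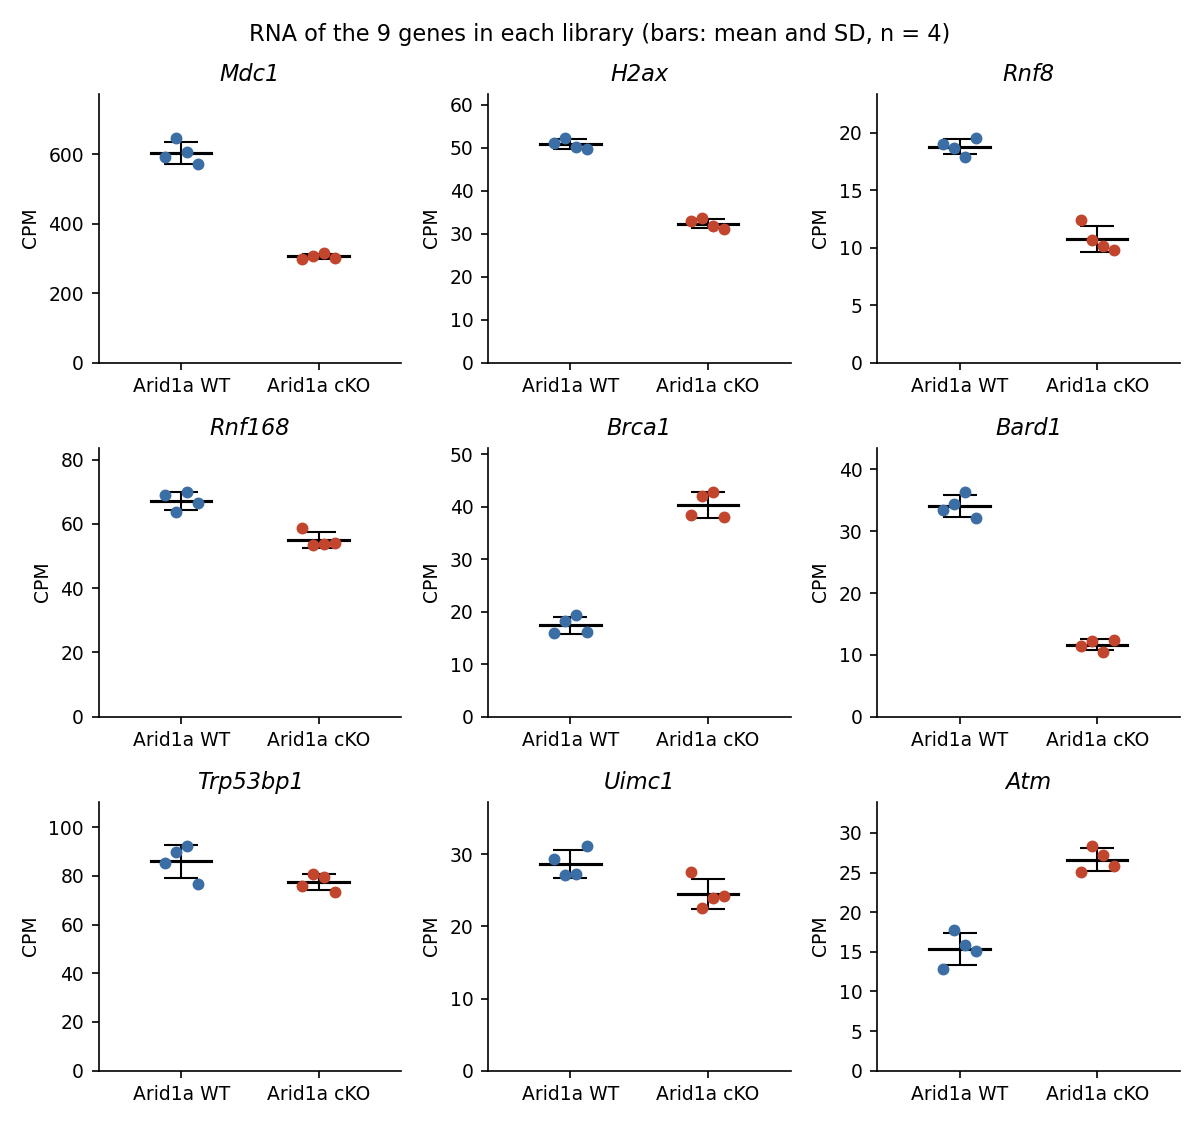
CPM (TMM scaled; linear axes) of the 9 genes in each of the 4 *Arid1a* WT and 4 *Arid1a* cKO libraries; points are libraries and bars are mean ± SD (n = 4). The *Arid1a* cKO points of *Mdc1*, *H2ax*, *Rnf8*, *Rnf168* and *Bard1* lie below all *Arid1a* WT points, those of *Brca1* and *Atm* lie above, and those of *Trp53bp1* and *Uimc1* overlap.

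*Atm*, the kinase that responds to double-strand breaks, was measured at 12.8, 17.7, 15.9 and 15.1 CPM in *Arid1a* WT replicates 1 to 4 and at 25.1, 28.3, 27.2 and 25.8 CPM in *Arid1a* cKO replicates 1 to 4. The groups did not overlap, and the lowest *Arid1a* WT library was replicate 1. *Atm* (chr9:53437122-53536828) was 1.73-fold higher in *Arid1a* cKO (15.4 ± 2.06 against 26.6 ± 1.44 CPM, SD, n = 4 each; log2 fold change 0.79, SE 0.09, edgeR adjusted p = 1.2e-06). In TPM, which are divided by transcript length, *Atm* was at 2.78 ± 0.585 and 3.94 ± 0.681, and limma on log2(TPM + 1) gave a log2 fold change of 0.39.

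*H2ax*, the histone variant that ATM and ATR phosphorylate, was at 51.2, 52.2, 50.3 and 49.7 CPM in *Arid1a* WT and at 33.0, 33.6, 31.7 and 31.2 CPM in *Arid1a* cKO. Replicates lay close together within each genotype and the groups were well apart. *H2ax* (chr9:44334715-44336077) fell to 63.6% of its *Arid1a* WT level (50.8 ± 1.07 against 32.4 ± 1.12 CPM; log2 fold change -0.65, SE 0.05, edgeR adjusted p = 1.83e-08). *H2ax* is known to make both a polyadenylated transcript and one that ends in a histone stem-loop without a poly(A) tail, and libraries of mRNA capture the polyadenylated form, so the value covers that form.

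*Mdc1*, the adaptor that binds γH2AX, was the most abundant member in TPM in both genotypes. Its level was 592, 646, 606 and 572 CPM in *Arid1a* WT and 299, 307, 317 and 301 CPM in *Arid1a* cKO. Every *Arid1a* cKO library was far below the lowest *Arid1a* WT library. *Mdc1* (chr17:35841495-35859670) was 1.97-fold lower in *Arid1a* cKO (604 ± 31.3 against 306 ± 8.2 CPM; log2 fold change -0.98, SE 0.05, edgeR adjusted p = 2.5e-10).

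*Rnf8*, the ubiquitin ligase that docks on phosphorylated MDC1, was at 19.0, 18.7, 17.9 and 19.5 CPM in *Arid1a* WT and at 12.4, 10.7, 10.1 and 9.83 CPM in *Arid1a* cKO. The groups did not overlap. *Rnf8* (chr17:29614789-29641664) fell to 57.3% of its *Arid1a* WT level (18.8 ± 0.683 against 10.7 ± 1.14 CPM; log2 fold change -0.80, SE 0.08, edgeR adjusted p = 3.58e-07). Another gene model on the same strand, *Gm28043* (chr17:29614789-29705979), starts with *Rnf8* and reads on through *Cmtr1*; in GENCODE M21 it overlaps *Rnf8* over 30116 bases. Reads of the shared exons cannot be told apart by position, and 16.8% of the 31-base words of *Rnf8* transcripts occur in another gene. *Gm28043* was also lower (25.69 ± 6.429 against 10.4 ± 1.132 CPM; log2 fold change -1.30, SE 0.15, edgeR adjusted p = 2.20e-06). With both models summed, a setting chosen after the data were seen, the log2 fold change was -1.07 (SE 0.08, edgeR adjusted p = 2.15e-08).

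*Rnf168*, the ligase that amplifies the ubiquitin signal on H2A, was at 69.1, 63.6, 69.8 and 66.5 CPM in *Arid1a* WT and at 58.7, 53.5, 53.7 and 53.9 CPM in *Arid1a* cKO. The difference was small but the groups did not overlap, and *Arid1a* cKO replicate 1 lay above the other three. *Rnf168* (chr16:32277461-32301442) fell to 81.8% of its *Arid1a* WT level (67.3 ± 2.83 against 55.0 ± 2.51 CPM; log2 fold change -0.29, SE 0.05, edgeR adjusted p = 0.000147).

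*Trp53bp1* and *Uimc1*, whose products read the ubiquitin marks, had the smallest log2 fold changes of the 9 genes in edgeR. *Trp53bp1*, which encodes the repair factor 53BP1, was at 85.3, 89.8, 92.1 and 76.7 CPM in *Arid1a* WT and at 76.0, 80.8, 79.5 and 73.4 CPM in *Arid1a* cKO. *Arid1a* WT replicate 4 lay within the range of the *Arid1a* cKO libraries. *Trp53bp1* (chr2:121194835-121296354) was at 90.1% of its *Arid1a* WT level (86.0 ± 6.76 against 77.4 ± 3.39 CPM; log2 fold change -0.15, SE 0.06, edgeR adjusted p = 0.0374), and an exact two-sided permutation test over the 4 and 4 libraries gave p = 0.0857. This call was lost with DESeq2 (adjusted p = 0.084) and when most single libraries were left out. *Tubgcp4*, on the opposite strand, overlaps *Trp53bp1* over 5490 bases and was lower in *Arid1a* cKO (log2 fold change -1.30, SE 0.08, edgeR adjusted p = 2.15e-09); whether the counting used strand is not given in the sources used here.

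*Uimc1*, which encodes the ubiquitin-binding protein RAP80, was at 29.3, 27.1, 27.2 and 31.1 CPM in *Arid1a* WT and at 27.5, 22.6, 23.9 and 24.2 CPM in *Arid1a* cKO. *Arid1a* cKO replicate 1 overlapped the *Arid1a* WT libraries. *Uimc1* (chr13:55027880-55100363) was at 85.5% of its *Arid1a* WT level (28.7 ± 1.92 against 24.5 ± 2.11 CPM; log2 fold change -0.23, SE 0.07, edgeR adjusted p = 0.0115; exact two-sided permutation p = 0.0857). The log2 fold change was -0.37 in DESeq2 with length offsets and -0.46 in limma on log2(TPM + 1).

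*Brca1*, which loads on unsynapsed axes in meiosis, was at 15.9, 18.2, 19.3 and 16.2 CPM in *Arid1a* WT and at 38.3, 42.0, 42.7 and 38.0 CPM in *Arid1a* cKO. All 4 *Arid1a* cKO libraries were far above the highest *Arid1a* WT library. *Brca1* (chr11:101488761-101551955) was 2.31-fold higher in *Arid1a* cKO (17.4 ± 1.62 against 40.2 ± 2.46 CPM; log2 fold change 1.21, SE 0.07, edgeR adjusted p = 1.33e-09).

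*Bard1*, the partner that BRCA1 needs for its ligase activity and stability, was at 33.4, 34.4, 36.3 and 32.1 CPM in *Arid1a* WT and at 11.5, 12.3, 10.4 and 12.4 CPM in *Arid1a* cKO. Each *Arid1a* cKO library was below every *Arid1a* WT library by a wide margin. *Bard1* (chr1:71027535-71103141) was 2.93-fold lower in *Arid1a* cKO, at 34.1% of its *Arid1a* WT level (34.1 ± 1.79 against 11.7 ± 0.905 CPM; log2 fold change -1.55, SE 0.07, edgeR adjusted p = 5.88e-11). This was the largest log2 fold change of the 9 members in edgeR. GENCODE lists 1 *Bard1* transcript, and only 1.49% of its 31-base words occur in another gene. The 7 members whose groups did not overlap each reached p = 0.0286 in the exact two-sided permutation test, which is the smallest p that 4 against 4 libraries can give.

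**Figure D2:**
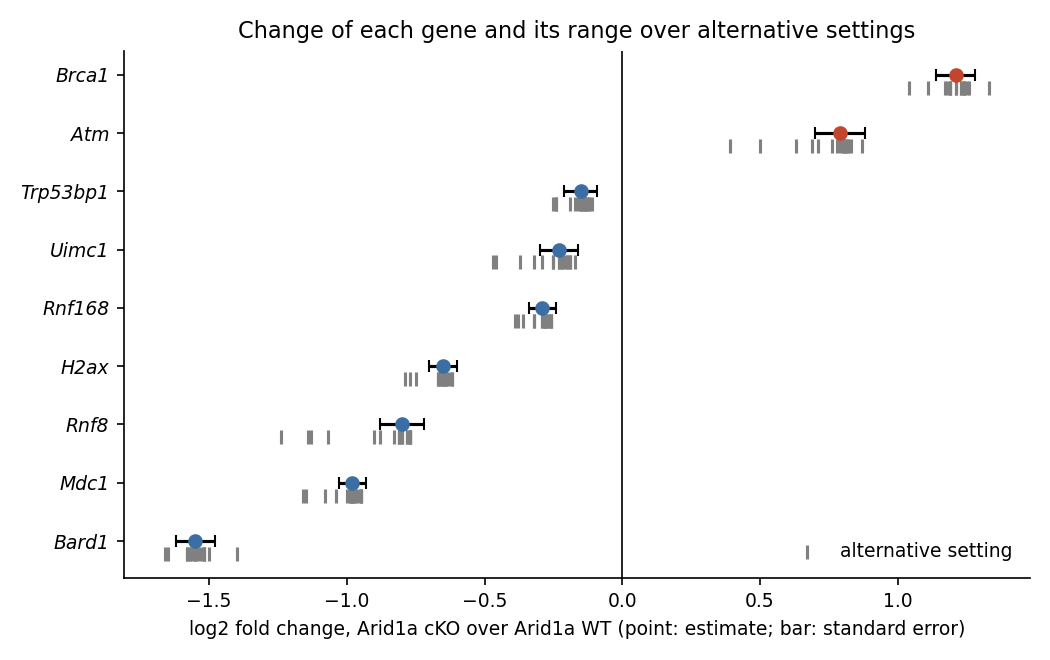
Log2 fold change (*Arid1a* cKO minus *Arid1a* WT) of the 9 genes with bars of ± SE from edgeR (n = 4 libraries per genotype); grey ticks are the values under the other processing settings. Values run from -1.55 for *Bard1* to 1.21 for *Brca1*, and no tick of a gene lies across 0 from its point.

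Pairs of members that act on each other were compared within each library as the log2 ratio of their counts, which does not depend on the scaling between libraries. The ratio of *Brca1* to *Bard1* was -1.07, -0.92, -0.91 and -0.99 in *Arid1a* WT and 1.73, 1.77, 2.04 and 1.61 in *Arid1a* cKO. *Bard1* had the more counts in all 4 *Arid1a* WT libraries and *Brca1* in all 4 *Arid1a* cKO libraries. The mean ratio rose by 2.76 log2 units, from -0.97 ± 0.07 to 1.79 ± 0.18 (SD, n = 4 each). Per length, *Brca1* TPM divided by *Bard1* TPM was 0.453, 0.512, 0.476 and 0.451 in *Arid1a* WT and 3.29, 3.78, 3.93 and 3.18 in *Arid1a* cKO, so the order of both transcripts also turned on that scale.

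The log2 ratio of *Rnf8* to *Rnf168* was -1.86, -1.76, -1.97 and -1.77 in *Arid1a* WT and -2.25, -2.32, -2.41 and -2.45 in *Arid1a* cKO, a difference of -0.52. The fall of *Rnf8* thus exceeded that of *Rnf168*, and on the scales of log2(TPM + 1) and log2(TPM + 0.1) the difference was -0.78 and -0.86. *Mdc1* to *H2ax* was 3.53, 3.63, 3.59 and 3.52 in *Arid1a* WT and 3.18, 3.19, 3.32 and 3.27 in *Arid1a* cKO, a difference of -0.33. The ratio of *Brca1* to *Trp53bp1*, whose products act in opposed ways on the choice of break repair pathway, was -2.42, -2.31, -2.25 and -2.24 in *Arid1a* WT and -0.99, -0.95, -0.9 and -0.95 in *Arid1a* cKO, a difference of 1.36. In each of these 4 pairs the genotypes did not overlap, and each exact two-sided permutation test gave p = 0.0286 (Benjamini-Hochberg adjusted over the 4 pairs, 0.0286), the smallest p it can give.

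**Figure D3:**
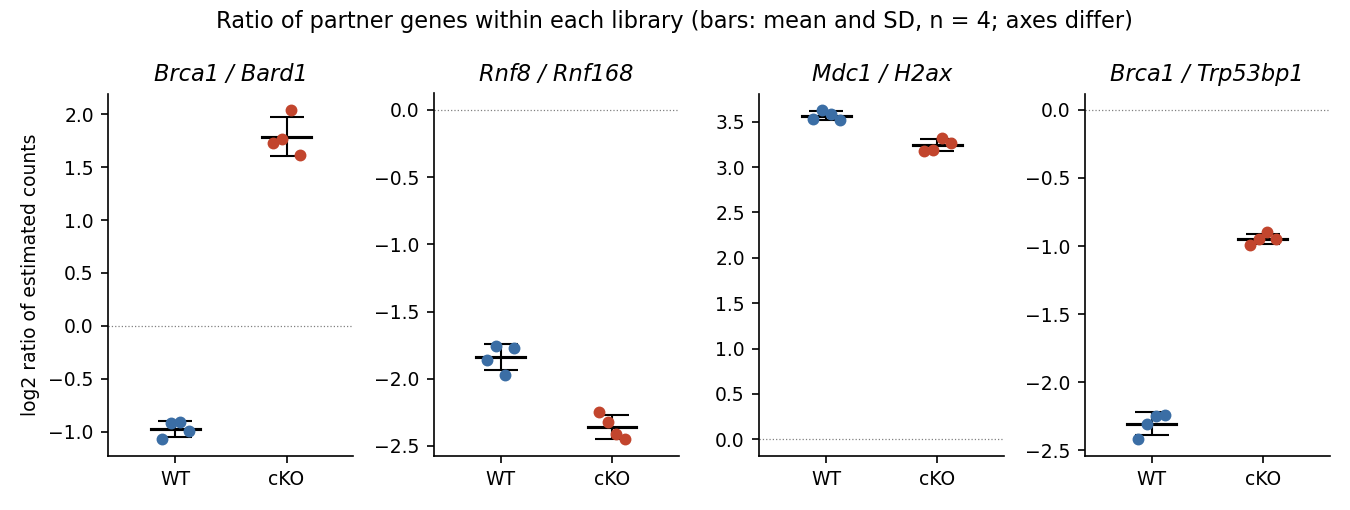
Log2 ratio of estimated counts of 2 genes within each library, for 4 pairs; points are the 4 *Arid1a* WT and 4 *Arid1a* cKO libraries and bars are mean ± SD. The ratio of *Brca1* to *Bard1* lies below 0 in every *Arid1a* WT library and above 0 in every *Arid1a* cKO library.

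Levels of different genes were compared in TPM. In *Arid1a* WT, *Mdc1* stood first at 205 ± 17.5 TPM (SD, n = 4), followed by *H2ax* (60.0 ± 2.95), *Trp53bp1* (49.3 ± 11.0), *Uimc1* (33.8 ± 5.14), *Rnf168* (24.4 ± 1.28), *Rnf8* (17.4 ± 1.24), *Bard1* (8.92 ± 0.768), *Brca1* (4.23 ± 0.55) and *Atm* (2.78 ± 0.585). Neighbours in this order did not overlap between their lowest and highest libraries, except *H2ax* with *Trp53bp1* and *Trp53bp1* with *Uimc1*. The adaptor and the histone were thus measured far above the kinase and the BRCA1-BARD1 ligase. In *Arid1a* cKO the order was *Mdc1* (91.7 ± 6.8 TPM), *Trp53bp1* (40.9 ± 3.0), *H2ax* (34.6 ± 1.13), *Uimc1* (24.2 ± 2.68), *Rnf168* (18.7 ± 0.62), *Brca1* (9.76 ± 0.929), *Rnf8* (7.34 ± 1.09), *Atm* (3.94 ± 0.681) and *Bard1* (2.76 ± 0.215), and no neighbours overlapped. *Bard1* moved from above *Brca1* and *Atm* to the lowest place, and *Brca1* moved above *Rnf8*. TPM are scaled to all transcripts quantified, and the genes in the table summed to 780735 to 811443 TPM in *Arid1a* WT libraries and 880901 to 886412 TPM in *Arid1a* cKO libraries.

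**Figure D4:**
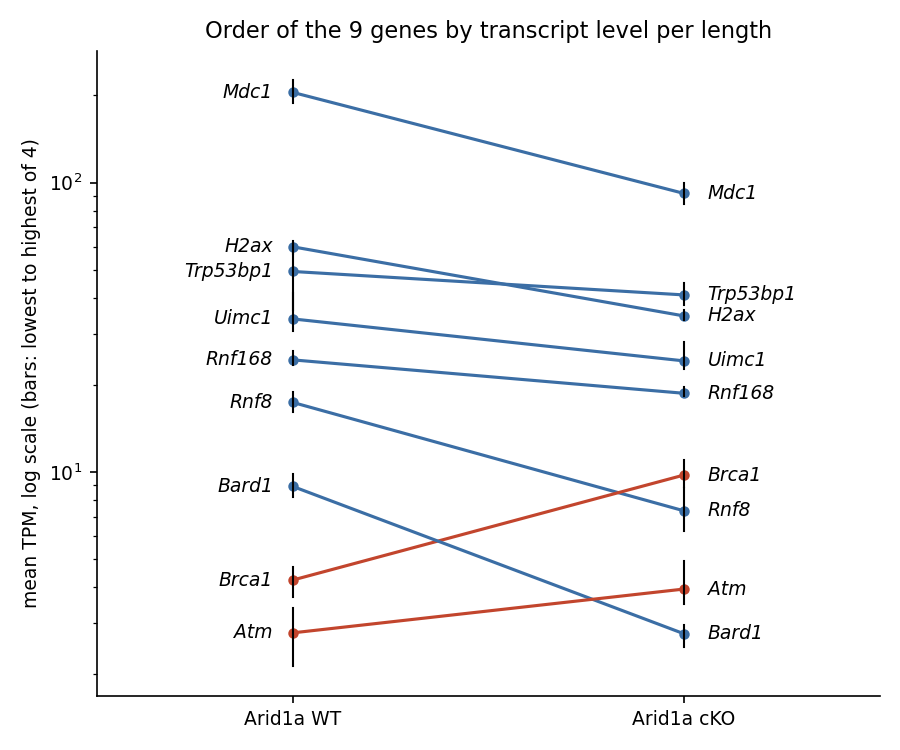
Mean TPM (log axis) of the 9 genes in *Arid1a* WT and *Arid1a* cKO libraries, with bars from the lowest to the highest of the 4 libraries; red lines rise and blue lines fall in *Arid1a* cKO. *Mdc1* is the highest in both genotypes, and *Bard1* falls from 8.92 to 2.76 TPM while *Brca1* goes from 4.23 to 9.76 TPM.

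Counts divided by TPM are proportional to the average length of the transcripts to which a gene's reads were assigned. For *Rnf8* this length was 1.05, 1.07, 0.962 and 0.929 times the *Arid1a* WT mean in the *Arid1a* WT libraries and 1.45, 1.07, 1.29 and 1.38 times in the *Arid1a* cKO libraries. Averaged over libraries it was 1.29 times as long in *Arid1a* cKO (exact two-sided permutation p = 0.0286), and 6.02% of 10850 genes shifted by as much in either direction. GENCODE lists 12 *Rnf8* transcripts. In TPM, *Rnf8* went from 17.4 ± 1.24 to 7.34 ± 1.09, a log2 fold change of -1.24 in limma on log2(TPM + 0.1). For *Bard1* and *H2ax* the value was 1.05 times that in *Arid1a* WT, and for *Rnf168* 1.02 times, without overlap of the groups. Groups did not overlap for 53.3% of genes, and the median absolute shift over the 10850 genes was 0.0754 log2 units. GENCODE lists 1 transcript each for *Bard1* and *H2ax*, so shifts of this size cannot be read as a change in transcript length. For *Uimc1* (1.13, exact p = 0.0571), *Mdc1* (1.08, exact p = 0.0857), *Brca1* (0.954, exact p = 0.257), *Atm* (1.16, exact p = 0.257) and *Trp53bp1* (1.02, exact p = 0.829) the groups overlapped.

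A pair of members share a divergent start region with a neighbouring gene. *Nbr1*, an autophagy receptor gene, starts on the opposite strand 152 bases from *Brca1*, within the window printed above, and another pair of their starts lies 699 bases apart. *Nbr1* was higher in *Arid1a* cKO as well (148 ± 6.73 against 505 ± 22.2 CPM; log2 fold change 1.77, SE 0.05, edgeR adjusted p = 5.03e-13). Its groups did not overlap. *Npat*, a regulator of histone gene transcription, starts 376 bases from *Atm* and differed little (50.3 ± 1.62 against 54.7 ± 2.63 CPM; log2 fold change 0.12, SE 0.05, edgeR adjusted p = 0.0429), with overlapping groups. *Brca1* and *Nbr1* were thus both higher, while *Atm* had a log2 fold change of 0.79 beside 0.12 for *Npat*.

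The surrounding pathway was followed in 4 lists that hold 50 tested genes, of which 18 were higher (36%), 23 lower (46%) and 9 were not called, against 36.5% higher and 37.5% lower over all genes. Their median log2 fold change was -0.11. The list of 13 kinases, damage sensors and γH2AX phosphatases had 4 higher, 8 lower and 1 not called (median -0.44). *Atr*, the kinase that phosphorylates H2AX across the sex body, fell from 948 ± 54.4 to 272 ± 9.98 CPM (log2 fold change -1.80, SE 0.06, edgeR adjusted p = 7.18e-13). By antibody staining, the study reported that γH2AX and ATR appeared normal on the sex body of spermatocytes without ARID1A, and that MDC1 remained there. RNA levels do not measure the amount or location of these proteins. *Kat5*, the acetyltransferase that activates ATM, fell from 158 ± 13.1 to 83.9 ± 3.14 CPM (log2 fold change -0.92, SE 0.06, adjusted p = 4.05e-09). The γH2AX phosphatase genes did not move one way. *Ppm1d* went from 188 ± 9.81 to 675 ± 13.1 CPM (log2 fold change 1.84, SE 0.05, adjusted p = 2.46e-13) and *Ppp4c* from 68.0 ± 3.5 to 115 ± 2.73 CPM (log2 fold change 0.76, SE 0.05, adjusted p = 3.25e-09). *Ppp2ca*, the catalytic subunit gene of another γH2AX phosphatase, named here after its values were seen, fell from 56.6 ± 2.13 to 36.4 ± 1.4 CPM (log2 fold change -0.63, SE 0.05, adjusted p = 3.98e-08). Beside *Atm* (log2 fold change 0.79), the other kinase genes of the list, *Prkdc* (-0.24, edgeR adjusted p = 0.00114) and *Chek2* (-0.44, adjusted p = 0.0155), named after their values were seen, were lower like *Atr*.

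The list of 18 ubiquitin partners, antagonists and deubiquitinases of RNF8 and RNF168 had 10 higher (55.6%), 3 lower (16.7%) and 5 not called, with a median of 0.63, against 36.5% higher, 37.5% lower and a median of -0.02 over all genes. *Otub2*, a deubiquitinase that restrains RNF8 signalling, rose from 58.5 ± 3.76 to 233 ± 3.82 CPM (log2 fold change 2.0, SE 0.05, edgeR adjusted p = 1.72e-13). *Ube2v2*, a cofactor of the ubiquitin-conjugating enzyme UBC13, rose from 24.2 ± 1.07 to 75.0 ± 3.82 CPM (log2 fold change 1.63, SE 0.06, adjusted p = 2.31e-12). *L3mbtl2*, a substrate of RNF8 that helps bring in RNF168, fell from 130 ± 6.64 to 24.5 ± 0.679 CPM (log2 fold change -2.41, SE 0.05, adjusted p = 5.47e-14). *Rnf169*, a relative of RNF168 that limits 53BP1 binding, fell from 12.2 ± 1.19 to 7.07 ± 0.631 CPM (log2 fold change -0.78, SE 0.10, adjusted p = 3.85e-06).

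Of 8 genes of the BRCA1-A complex and BRCA1 partners, 2 were higher (25%), 5 lower (62.5%) and 1 was not called (median -0.37), beside 36.5% higher, 37.5% lower and a median of -0.02 over all genes. *Brca2* fell from 154 ± 9.95 to 77.4 ± 4.12 CPM (log2 fold change -0.99, SE 0.06, edgeR adjusted p = 9.41e-10), and *Abraxas1*, the scaffold of the BRCA1-A complex, fell from 10.6 ± 1.11 to 5.63 ± 0.302 CPM (log2 fold change -0.91, SE 0.10, adjusted p = 9.35e-07). *Brip1*, a helicase that binds BRCA1, rose from 6.7 ± 1.33 to 15.1 ± 0.895 CPM (log2 fold change 1.18, SE 0.12, adjusted p = 3.81e-07). *Babam2*, another subunit of the complex, rose from 36.8 ± 2.99 to 45.8 ± 1.52 CPM (log2 fold change 0.31, SE 0.06, adjusted p = 0.000364).

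Of 11 effectors and modulators of 53BP1, 2 were higher (18.2%), 7 lower (63.6%) and 2 were not called (median -0.55). Over all genes the shares were 36.5% and 37.5%, with 74.0% called in either direction and a median of -0.02. *Rif1*, the effector that 53BP1 recruits to block end resection, fell from 344 ± 13.3 to 137 ± 2.83 CPM (log2 fold change -1.33, SE 0.05, edgeR adjusted p = 3.12e-12). *Nudt16l1*, which encodes the 53BP1 inhibitor TIRR, fell from 49.7 ± 3.61 to 16.1 ± 2.18 CPM (log2 fold change -1.64, SE 0.09, adjusted p = 3.81e-10). *Paxip1*, which encodes the 53BP1 partner PTIP, rose from 43.2 ± 1.61 to 94.0 ± 5.93 CPM (log2 fold change 1.12, SE 0.06, adjusted p = 1.44e-10), and *Dynll1*, a dynein light chain that binds 53BP1, rose from 215 ± 10 to 384 ± 8.63 CPM (log2 fold change 0.83, SE 0.05, adjusted p = 8.54e-10). *Trp53bp1* itself had a log2 fold change of -0.15.

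**Figure D5:**
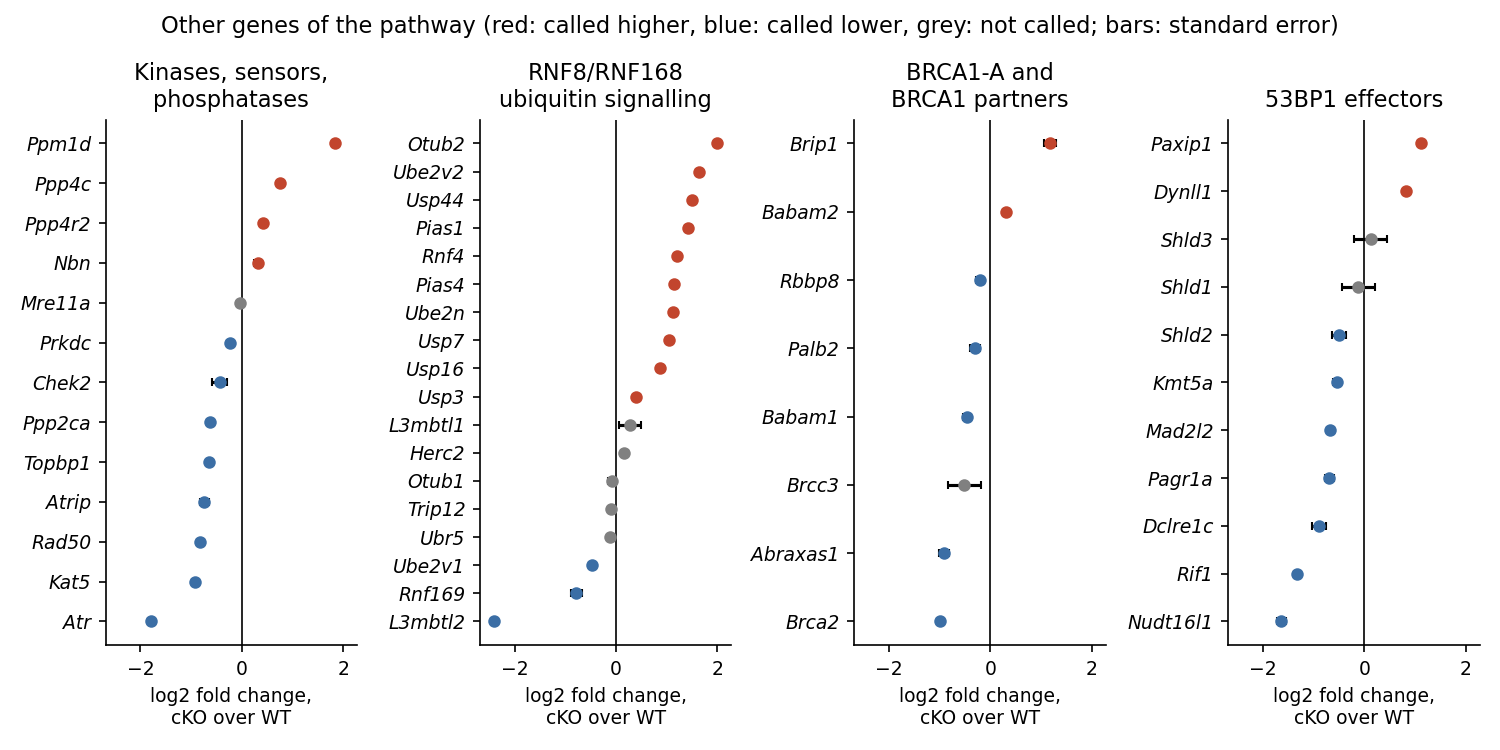
Log2 fold change (*Arid1a* cKO minus *Arid1a* WT) with bars of ± SE for the 50 tested genes of the 4 pathway lists; red marks genes called higher, blue genes called lower and grey genes not called (edgeR, adjusted p of 0.05). Over the 50 genes, 36% are called higher and 46% lower, beside 36.5% and 37.5% of all genes tested.

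For the first steps of the cascade, the tested genes with the most similar profile over the 8 libraries were found among 12997 genes, by the root mean square difference of centred log2 CPM. They were *Trip11*, *Efcab8* and *Zscan25* for *Mdc1* (differences of 0.031, 0.032 and 0.035 log2 units), with log2 fold changes of -0.95, -0.99 and -1.07. For *H2ax* they were *Dync1li2*, *Pnpla7* and *Stil* (0.031, 0.032 and 0.036), with log2 fold changes of -0.69, -0.61 and -0.63. For *Rnf8* they were *Tsnax*, *Mto1* and *Gnai3* (0.047, 0.048 and 0.051), with log2 fold changes of -0.82, -0.79 and -0.77. The profile is set mainly by the step between genotypes, and none of the 9 genes found is another member.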

How the data were processed

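RNA-seq was analysed in pachytene spermatocyte libraries of 4 *Arid1a* WT and 4 *Arid1a* cKO samples, grouped by the genotype in their labels. The authors quantified paired-end reads with Salmon, used tximport with the mm10 gene set to obtain gene-level values, and deposited both estimated counts per gene, unscaled for depth or length, and TPM. Software versions and the strand setting are not given in the sources used here. The authors' table of differentially expressed genes holds fold changes and p-values from DESeq2 and was not used. All deposited columns matched a sample (0 left over), and 21036 of 21058 genes were found in RefSeq (GRCm38.p6, the patch release of the mm10 build), which gives all coordinates printed. Overlaps and transcript numbers are from GENCODE M21.

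Estimated counts were rounded and genes reaching 10 counts over the 8 libraries entered a quasi-likelihood test in edgeR 4.0.16 under R 4.3.3 (TMM, genotype only), with Benjamini-Hochberg adjustment over 17643 genes and calls at an adjusted p of 0.05 or less. Whole counts had been assumed when the test was planned. The SE was obtained from the log2 fold change and its F statistic. Single values were tested by exact two-sided permutation over 70 assignments. Scripts were tested on simulated data. Alternatives used DESeq2 1.42.0, limma 3.58.1 on log2(TPM + 1) and log2(TPM + 0.1), other normalizations and filters, a replicate block and each library left out.

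Replicate libraries of *Arid1a* WT differed by a chi-square per degree of freedom of 3.98 to 16, and those of *Arid1a* cKO by 1.65 to 3.17, so none was a repeat deposit. The labels call them biological replicates. They do not say whether each came from its own purification, and p-values measure the spread between these samples.

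The members, pathway lists and markers were chosen with earlier results of these data known. All members are named, with the called genes of each list that moved furthest (up to 2 each way, average log2 CPM of at least 1), genes with a divergent start within 1000 bases of a member, the 3 genes most like *Mdc1*, *H2ax* and *Rnf8*, and *Arid1a*. Other assays of the study were not analysed here.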

Additional observations from a re-analysis of the deposited data

Results flagged for a closer look

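*Rnf168* stood out in *Arid1a* cKO replicate 1, at 58.7 CPM against 53.5 to 53.9 CPM in the other *Arid1a* cKO libraries. The gap to the nearest library was 0.92 of the group's range, above Dixon's 95% critical value for 4 samples. In all, 40 groups of 4 were examined, of which chance puts about 2 past that value. Without this library the log2 fold change of *Rnf168* was -0.32 (SE 0.05, edgeR adjusted p = 0.000142).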

How the results depend on the processing

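The differences of the 4 partner ratios kept their direction under the alternatives run. The exact p of the ratios was 0.0286 throughout, the smallest it can be, and says nothing about stability. Members called lower ranged from 5 (adjusted p of 0.01) to 7, members called higher stayed at 2, pathway genes called higher ranged from 17 to 20 and lower from 20 to 27. The *Trp53bp1* call was lost in 12 alternatives that kept the threshold of 0.05, with log2 fold changes of -0.24 to -0.11 and adjusted p of 0.0528 to 0.303: DESeq2 with and without length offsets, autosomal TMM, filterByExpr, both limma fits, and without *Arid1a* WT replicate 1, 2 or 3 or *Arid1a* cKO replicate 1, 3 or 4. The cause was not tested. *Trp53bp1* and *Uimc1* were not called at an adjusted p of 0.01. *Atm* ranged from 0.39 (limma on log2(TPM + 1)) to 0.87, *Rnf8* from -1.24 (limma on log2(TPM + 0.1)) to -0.77, and *Uimc1* from -0.47 (limma on log2(TPM + 0.1)) to -0.17. The *Rnf8* to *Rnf168* ratio difference ranged from -0.86 to -0.49. With 1 library left out, *Brca1* ranged from 1.17 to 1.26 and *Bard1* from -1.58 to -1.50.

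In the labels, same-numbered libraries share only a number. Their deviations correlated at 0.202, 0.042, 0.094 and -0.092 over 12797 genes, and those of other pairs at -0.208 to 0.18. For *Arid1a* cKO replicates 1, 2 and 3 the same-numbered *Arid1a* WT library correlated highest, and for replicate 4 lowest. Whether the libraries were paired cannot be told from these values. With the replicate block, 2 members were called higher and 7 lower, and 19 pathway genes higher and 23 lower. The adjusted p of *Trp53bp1* was then 0.0141 and that of *Uimc1* 0.00497 (edgeR). The block was not run for the ratios, since sign flips over 4 pairs cannot go below an exact p of 0.125. Depth limits the members with few counts; the lowest was 153 in 1 library (*Rnf8*).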
